A study of Mus musculus with 24 samples.

Results

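Lung epithelium markers are a group of 10 genes: the surfactant proteins Sftpc, Sftpb, Sftpa1 and Sftpd, the transcription factors Nkx2-1, Foxa1 and Foxa2, the tight junction gene Cldn18, the protease gene Napsa and the airway secretory gene Scgb1a1. They were listed as genes of the lung, a tissue that lies against the diaphragm, with earlier results of these data known. All 10 were measured, each by 1 probe set that names a single gene, among 19351 genes in all. Laser capture took the tissue from frozen sections of C57BL/6J mouse embryos, and amplified cDNA of each sample was read on an Affymetrix Mouse Gene 1.0 ST array. The 3 groups of 8 arrays differ in stage and share the strain: pleuroperitoneal folds, the ridges from which the diaphragm grows, at E11.5 and at E12.5, and the diaphragm at E16.5, by then muscle. The sample titles call all 3 stages pleuroperitoneal folds. No agent or engineered allele is named for any group. Sections were cut across the body at E11.5 and E12.5 and sagittally at E16.5, so the plane of section and the later stage cannot be told apart. Whether arrays of a stage come from separate embryos or litters is not given, so the tests measure the spread between these samples.

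Surfactant lines the air spaces and lowers their surface tension. Its hydrophobic proteins, from Sftpb and Sftpc, spread the lipid film, and the collectins from Sftpa1 and Sftpd bind microbes and lipid. Nkx2-1 marks the lung field of the foregut and, with Foxa1 and Foxa2, switches on surfactant genes; Sftpc is already on in the tips of the branching lung epithelium of the embryo, before mature alveolar type II cells exist. Napsa encodes an aspartic protease that processes surfactant protein B, Cldn18 a claudin with a lung and a stomach form, and Scgb1a1 the main secretion of airway club cells. A level on these arrays is a log2 intensity, and a difference of 1 is a 2-fold difference in signal. In a bulk sample, a change in the number of cells of a type and a change in RNA per cell cannot be told apart.

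RefSeq windows of the 250 bases before the start of transcription were matched for 6 of the 10 genes (build GRCm38.p6, 9 windows, since Cldn18 and Foxa2 have several starts); none was matched for Sftpc, Sftpd, Napsa and Scgb1a1. Those of Sftpb and Sftpa1 are shown because these surfactant genes stayed level where Sftpc rose, and those of Cldn18 because it has 2 starts and 1 array on which it stood far above the others. Capitals mark letters of the core of Nkx2-1 sites (CTTGAG or CAAGTG) and of Foxa sites (TGTTTAC or TGTTTGC or TATTTAC or TGTTGAC), searched on both strands. The windows are chr6:72304360-72304609 on the plus strand, chr14:41131538-41131787 on the plus strand, and chr9:99717268-99717517 and chr9:99710064-99710313 on the minus strand for the upstream and the downstream start of Cldn18, each printed 5′ to 3′ along the gene.
Sftpb: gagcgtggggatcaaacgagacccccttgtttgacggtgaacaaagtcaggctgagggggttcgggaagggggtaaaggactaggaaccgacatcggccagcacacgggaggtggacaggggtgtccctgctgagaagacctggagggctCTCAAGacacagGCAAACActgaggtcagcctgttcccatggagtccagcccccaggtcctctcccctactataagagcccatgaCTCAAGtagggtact
Sftpa1: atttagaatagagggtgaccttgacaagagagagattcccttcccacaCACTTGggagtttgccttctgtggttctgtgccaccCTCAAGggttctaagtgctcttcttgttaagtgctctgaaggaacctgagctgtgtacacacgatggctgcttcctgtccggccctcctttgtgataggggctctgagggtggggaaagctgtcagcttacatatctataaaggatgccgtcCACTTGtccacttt
Cldn18 upstream start: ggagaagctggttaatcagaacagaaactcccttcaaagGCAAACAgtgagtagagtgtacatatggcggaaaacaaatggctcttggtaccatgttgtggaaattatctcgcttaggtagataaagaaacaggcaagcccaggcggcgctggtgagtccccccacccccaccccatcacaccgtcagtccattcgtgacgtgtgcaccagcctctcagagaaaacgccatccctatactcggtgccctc
Cldn18 downstream start: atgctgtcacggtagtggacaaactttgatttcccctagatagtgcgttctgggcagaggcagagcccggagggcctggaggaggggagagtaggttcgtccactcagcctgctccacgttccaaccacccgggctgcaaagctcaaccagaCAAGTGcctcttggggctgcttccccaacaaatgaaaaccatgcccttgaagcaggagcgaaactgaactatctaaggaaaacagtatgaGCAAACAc
Sftpb holds CTCAAG, the Nkx2-1 core read on the other strand, beginning 100 and 15 bases before the start, and a Foxa match, GCAAACA, beginning at 88. Sftpa1 holds 3 Nkx2-1 matches, beginning at 202, 166 and 14, and no Foxa match in this window. The upstream start of Cldn18 has a Foxa match beginning at 211, and the downstream start has an Nkx2-1 match at 98 and a Foxa match at 8. Of all 32851 windows of this length, 22.6% hold an Nkx2-1 match and 11.6% a Foxa match. Over the 9 windows of these genes, 4 hold an Nkx2-1 match and 4 a Foxa match. These are matches of letters, with no binding measured here.

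Muscle transcripts were highest in the E16.5 arrays. The mean of 17 skeletal muscle genes lay between 8.11 and 9.24 per array at E11.5, between 8.21 and 11.09 at E12.5 and between 11.72 and 12.21 at E16.5. Array medians were 7.44 to 7.55. Lower quartiles were 6.40 to 6.64, and values under them are treated here as the range of background. A probe set has a background of its own, so a level above that quartile that never moves does not show a transcript either, and levels of different genes are not compared.

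Sftpc was the member that rose, and it rose at E16.5 only among the 3 stages. Its log2 values at E11.5 were between 5.85 and 6.14 (median 5.96), and at E12.5 between 5.59 and 6.10 (median 5.83). All 16 arrays of these stages lay below their lower quartile. At E16.5 the arrays of replicates 1 to 8 read, in that order, 11.26, 11.77, 12.73, 9.67, 11.97, 8.26, 8.0 and 11.10. Every E16.5 array was above every array of the earlier stages, as was so for 4.69% of all genes against E12.5 and 5.22% against E11.5. No member was higher on every E12.5 than on every E11.5 array, beside 0.093% of all genes. Replicates 6 and 7 were low, at percentiles 68.0 and 61.7 of the genes on their array, and replicate 3 was at percentile 99.4.

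From E12.5 to E16.5 the mean of Sftpc went from 5.80 ± 0.16 (SD, n = 8) to 10.6 ± 1.75. The log2 change was 4.80 ± 0.48 (SE; 95% interval 3.82 to 5.78), a 27.8-fold difference in signal, with adjusted p = 2.25e-08 in limma. This was the 8th largest rise of all 19351 genes. Against E11.5 the log2 change was 4.61 ± 0.48 (adjusted p = 3.03e-08), the 40th largest rise. Both comparisons use the same E16.5 arrays. The fit pools the SD of 1.75 at E16.5 with those of 0.16 at E12.5 and 0.11 at E11.5. The SEs and the interval are therefore probably too narrow for Sftpc. With only the stages compared in the fit, the adjusted p was 4.66e-06 against E12.5 and 5.95e-06 against E11.5 in limma. Because both earlier stages lay in the range of background, the folds are lower bounds at best. With the mean of 17 hepatocyte genes per array as a covariate, the log2 change was 4.19 (adjusted p = 3.39e-05) against E12.5 and 3.39 (adjusted p = 0.0293) against E11.5 in limma. The hepatocyte mean was 6.67 to 6.90 per array at E11.5 and 9.09 to 11.12 at E16.5, without overlap. This covariate moves with stage, so the fit cannot separate liver tissue from stage. The part of liver tissue in the values was not tested.

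Sftpc did not pass the threshold between E11.5 and E12.5 (log2 change -0.19 ± 0.48, adjusted p = 0.880 in limma). The 3 stages share 1 estimate of the spread in this fit; with only these 2 stages in it the adjusted p was 0.313 in limma. Both stages are below the lower quartile, so this difference says nothing about the transcript.

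**Figure D1:**
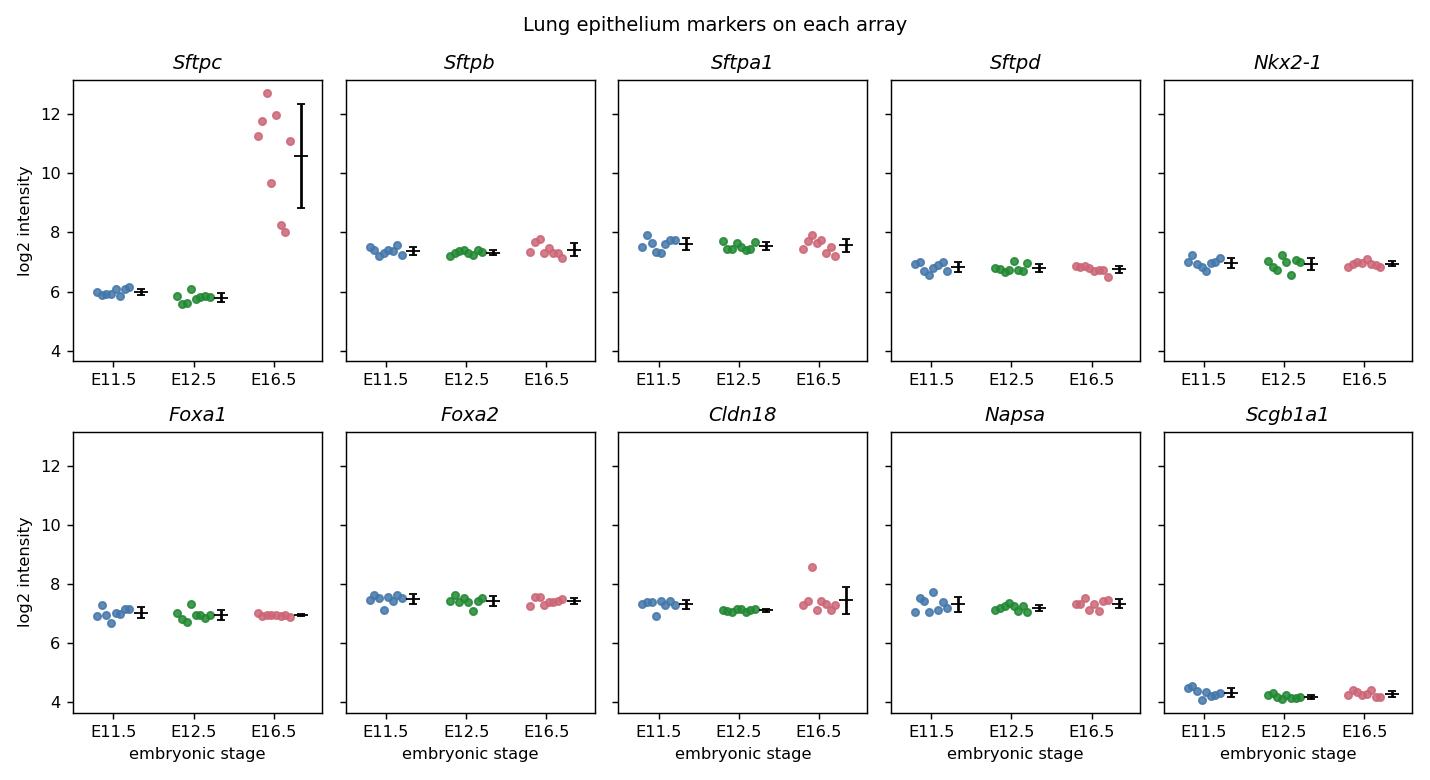
Log2 intensity of each of the 10 lung epithelium markers on each of the 24 arrays; points are arrays in order of replicate number within a stage, and the bar beside them is the mean with its SD (n = 8). Sftpc lies at 5.59 to 6.14 on the 16 earlier arrays and at 8.0 to 12.73 at E16.5, while the other 9 genes overlap between all 3 stages.

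The other 3 surfactant genes stayed level. Sftpb spanned 7.22 to 7.59 in the E11.5 folds, 7.21 to 7.41 in those of E12.5 and 7.15 to 7.79 in the E16.5 diaphragm. Its log2 change from E12.5 to E16.5 was 0.10 ± 0.08 (95% interval -0.06 to 0.26, adjusted p = 0.412 in limma), and only replicates 2, 3 and 5 of E16.5, at 7.68, 7.79 and 7.49, were above all E12.5 arrays. The upper end of this interval, 0.26, lies far under the lower end of 3.82 for Sftpc in the same fit. That lower end rests on the pooled spread and is probably too high. Sftpa1 had medians of 7.63, 7.49 and 7.56 at the 3 stages in order, and a log2 change of 0.02 ± 0.10 from E12.5 to E16.5 (interval -0.17 to 0.22). Sftpd had medians of 6.85, 6.75 and 6.76 and a change of -0.04 ± 0.07 (interval -0.19 to 0.11). The stages overlapped for each of these 3 genes in every comparison.

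The transcription factors of the lung field did not follow Sftpc. Nkx2-1 lay between 6.68 and 7.25 at E11.5, between 6.57 and 7.24 at E12.5 and between 6.82 and 7.09 at E16.5. Its log2 change from E12.5 to E16.5 was 0.00 ± 0.08 (interval -0.17 to 0.18). Foxa1 lay between 6.90 and 7.02 on the 8 arrays of E16.5, with an SD of 0.04 where the median SD of all genes at that stage was 0.19, and changed by -0.01 ± 0.08 (interval -0.18 to 0.15). Foxa2 had medians of 7.53, 7.44 and 7.42 and changed by -0.01 ± 0.08 (interval -0.17 to 0.15). Foxa1 and Foxa2 also act in liver cells. Of 17 hepatocyte markers, 15 rose and 0 fell from E12.5 to E16.5, where 2223 of all 19351 genes rose and 3018 fell. The mean of that list per array spanned 6.67 to 6.90 on the E11.5 arrays, 7.51 to 11.47 on those of E12.5 and 9.09 to 11.12 on those of E16.5. On E12.5 replicate 2, where the hepatocyte mean was 11.47, Foxa1 read 6.83, inside the range of its stage, and Foxa2 7.63, the highest of its stage by a small margin (next 7.55). Sftpc read 5.59 there, its lowest value.

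Cldn18 was the other member with an array that stood apart. At E11.5 it lay between 6.93 and 7.44, and at E12.5 between 7.05 and 7.17, a tight range. At E16.5 replicate 3 read 8.58 and the other 7 arrays 7.12 to 7.43. Replicate 3 is also the array with the highest Sftpc. From E12.5 to E16.5 the log2 change of Cldn18 was 0.33 ± 0.14 (interval 0.04 to 0.62, unadjusted p = 0.0252, adjusted p = 0.0820 in limma), and without replicate 3 it was 0.17 (adjusted p = 0.0781). Neither value passed, although 6 of 8 E16.5 arrays were above all E12.5 arrays. It passed with E16.5 replicates 5 to 8 left out (0.49, adjusted p = 0.0447 in limma), a fit in which replicate 3 is 1 of the 4 arrays of its stage. Against E11.5 the log2 change of Cldn18 was 0.13 ± 0.14 (adjusted p = 0.485 in limma), and -0.03 without replicate 3. Only 1 of 8 E16.5 arrays was above all E11.5 arrays.

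Napsa and Scgb1a1 completed the level members. Napsa had medians of 7.31, 7.22 and 7.34 and changed by 0.13 ± 0.09 from E12.5 to E16.5 (interval -0.05 to 0.31). Scgb1a1, at 4.09 to 4.56 over all 24 arrays, was below the lower quartile on each of them. Between the folds of E11.5 and E12.5 it was the member with an unadjusted p under 0.05 (-0.14 ± 0.06, unadjusted p = 0.0413, adjusted p = 0.328 in limma), within the range of background.

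Counted together, 1 of 10 members changed from E12.5 to E16.5, where 27.1% of all genes changed (2223 of 19351 rose and 3018 fell). From E11.5 to E16.5 the count was again 1, against 33.5% of all genes (2680 rose and 3799 fell). From E11.5 to E12.5 it was 0 of 10 in limma (1 lower unadjusted), against 0.388% of all genes changed. As counts these shares lie at or under the background. The median log2 change of the 10 was -0.07, 0.06 and -0.04 for E12.5 against E11.5, E16.5 against E12.5 and E16.5 against E11.5, beside -0.03, -0.02 and -0.08 over all genes. The size of the change of Sftpc, not the count, sets it apart from the other members.

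**Figure D2:**
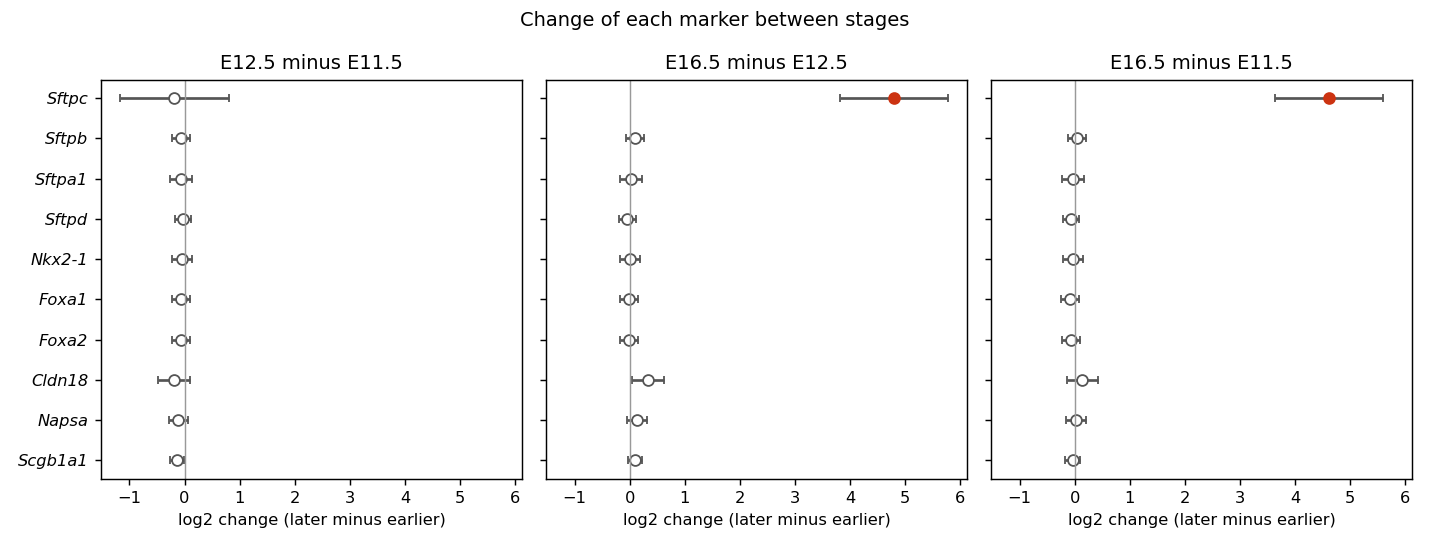
Log2 change of each marker in the 3 comparisons of stages, with its 95% interval from limma; filled red points are past an adjusted p of 0.05 and open points are not. Sftpc is the filled point in both comparisons with E16.5, at 4.80 and 4.61, and the other 9 intervals lie between -0.25 and 0.62 in those comparisons.

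The E16.5 arrays differed widely in Sftpc. Its SD of 1.75 was the 10th largest of all 19351 genes at that stage, and replicates 3 and 7 were 4.73 apart, a 26.5-fold difference in signal. At E11.5 and E12.5 its SD was 0.11 and 0.16. Some genes, such as Clic5 below, separate replicates 1 to 4 of E16.5 from replicates 5 to 8, and the labels name no batch. Of the members, Sftpd was split in this way by a small gap, at 6.80 to 6.86 against 6.50 to 6.73. Sftpc had a mean of 11.36 in replicates 1 to 4 (9.67 to 12.73) and of 9.83 in replicates 5 to 8 (8.0 to 11.97), so for Sftpc the sets overlapped. The log2 change from E12.5 was 5.56 with replicates 5 to 8 left out and 4.04 with replicates 1 to 4 left out, both past the threshold.

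Several lung transcripts outside the 10 were also high on replicate 3. By the closeness of their deviations from the stage means over the 24 arrays, the genes most like Cldn18 were Slc34a2 (r = 0.90), Lamp3 (0.89), Retnla (0.87) and Scn7a (0.83). Slc34a2, the phosphate carrier of alveolar type II cells, read 7.02 on E16.5 replicate 3 and 5.77 to 6.23 on the other 7. Lamp3, a membrane protein of the lamellar bodies that store surfactant, read 7.02 there and at most 5.79 on the others. Retnla, a secreted resistin-like protein, read 6.82 against at most 5.28. Scn7a, a sodium channel homologue, read 8.49 on replicate 3, 7.20 on replicate 5 and at most 5.81 elsewhere. These likenesses rest on that array: without it r was 0.57, 0.37, 0.34 and 0.34 in the same order.

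The genes closest to Sftpc itself were Lama3, a laminin chain of epithelial basement membranes (r = 0.82), Grn, which encodes progranulin (0.80), A2m, a plasma protease inhibitor (0.73), and Smarce1, a chromatin remodelling subunit (0.73). Leaving out E16.5 replicate 3 gave 0.75, 0.78, 0.63 and 0.75 in the same order. The SD of Sftpc was 1.75 at E16.5 and 0.11 and 0.16 before, so these r rest mostly on the E16.5 arrays. A2m read 9.84 on E16.5 replicate 3 and 7.38 to 8.83 on the other arrays of that stage. Closest to Sftpb were Rbp2 (r = 0.80), Cxcl15, a chemokine made by lung epithelium (0.78), Olfr771 (0.77) and Gdpd5 (0.76). Without replicate 3, r was 0.70, 0.65, 0.67 and 0.68 in the same order. Cxcl15 read 7.26 on E16.5 replicate 3, 6.66 on replicate 2, 5.0 on replicate 1 and 4.35 to 4.67 on the others. On the 16 earlier arrays it read at most 4.66. The 4 genes closest to each of the other level members had r of 0.74 to 0.87, Scgb1a1 apart, which was left out as below the lower quartile throughout. For Sftpa1, Sftpd, Nkx2-1, Foxa1, Foxa2 and Napsa the closest were Ntn4, Eif4a3l1, Unc45bos, Eps8l2, Il19 and Krtap24-1 in that order. At E16.5 Eif4a3l1 read 4.36 to 5.11 and Krtap24-1 5.87 to 6.06, in the range of background. All these genes were picked for the highest r among all genes, so r is high by selection and does not show shared expression.

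**Figure D3:**
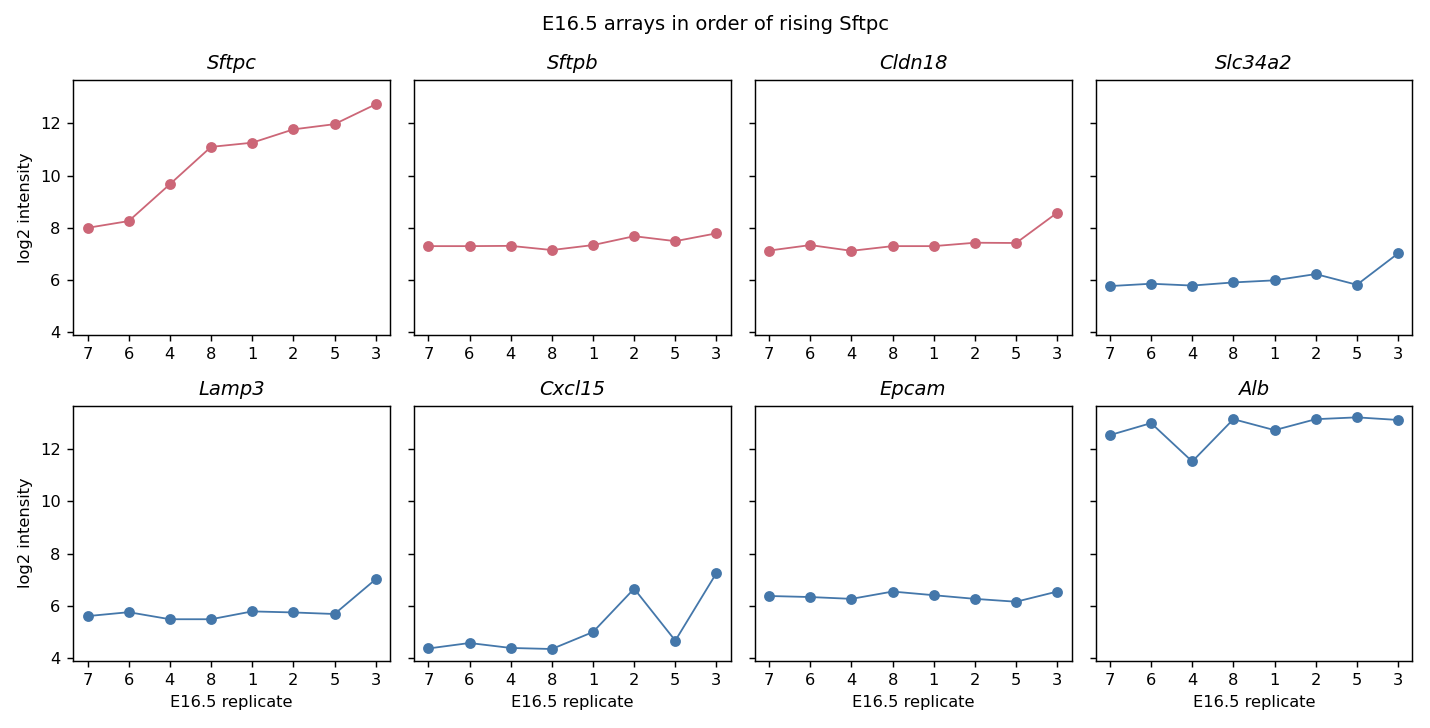
Log2 intensity on the 8 E16.5 arrays, ordered from left to right by rising Sftpc (replicate numbers on the x axis), for 3 members (red) and 5 other genes (blue). Cldn18, Slc34a2 and Lamp3 stand apart on replicate 3 alone, Cxcl15 on replicates 2 and 3, Epcam stays between 6.16 and 6.55, and Alb is lowest on replicate 4 at 11.53.

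Across the 8 E16.5 arrays, Sftpc was set against the other 9 members and against 9 list means, 18 relations in all. None passed adjustment in the exact permutation test. The mean of the wider lung list described below had r = 0.69 and rho = 0.79 (exact permutation p = 0.0461 and 0.0279, adjusted 0.444 and 0.168). Of the members, Sftpb had the highest values over all 8 arrays, with Pearson r = 0.64 (exact permutation p = 0.0844, adjusted 0.444) and Spearman rho = 0.83 (exact permutation p = 0.0154, adjusted 0.168). Without replicates 6 and 7, the 2 arrays farthest from the median of Sftpc, r was 0.73, and for deviations from the means of replicates 1 to 4 and 5 to 8 it was 0.52. The order of the members turned in both checks: Napsa, at r = 0.55 over 8 arrays, had 0.82 and 0.62, and Cldn18 had 0.77 and 0.55. Cldn18 had r = 0.62 and rho = 0.79 (exact permutation p = 0.0748 and 0.0279, adjusted 0.444 and 0.168). The hepatocyte mean had r = 0.60 and rho = 0.69 (exact permutation p = 0.0987 and 0.0694, adjusted 0.444 and 0.250), and skeletal muscle r = 0.21. In the same checks the hepatocyte mean had r = 0.86 and 0.77, and the mean of general epithelial genes, at r = 0.44 over 8 arrays, had 0.91 and 0.55. Nkx2-1 had r = 0.29. With 8 arrays these relations were not resolved.

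A wider list of 50 genes of lung epithelium, 46 of them measured, changed in both directions. From E12.5 to E16.5, 9 rose, 10 fell and 27 did not pass, so that 19 of 46 changed, beside the 27.1% of all genes; the median log2 change was 0.06. From E11.5 to E16.5, 11 rose and 13 fell, beside 33.5% of all genes changed (2680 of 19351 rose and 3799 fell). Between E11.5 and E12.5, 0 of 46 passed in limma (4 higher and 4 lower unadjusted), beside 0.388% of all genes. Of the 46, 13 (28.3%) had their highest E16.5 value on replicate 3, as did 12.7% of all genes.

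Of 11 measured genes of alveolar type II cells, 3 rose and 3 fell, beside 27.1% of all genes changed at this step (2223 of 19351 rose and 3018 fell). Ctsh, a lysosomal cathepsin that processes surfactant proteins, rose from 7.17 ± 0.21 to 8.37 ± 0.37 (log2 change 1.20 ± 0.17, adjusted p = 6.99e-06), and Lyz2, a lysozyme that macrophages also make, by 2.30 ± 0.29. Abca3, which loads lipid into lamellar bodies, rose by 0.31 ± 0.09 (adjusted p = 0.00720). The lipid enzymes Lpcat1, Fasn and Scd1 fell by 0.67, by 0.84 and by 1.0. Slc34a2 and Lamp3 did not pass (0.18 ± 0.13 and 0.25 ± 0.15), with 7 of 8 E16.5 arrays below their lower quartile. All these values are from E12.5 to E16.5.

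Of 8 genes used as markers of type I cells, 4 rose and 0 fell over the same interval, beside the 2223 of 19351 genes that rose in all. Emp2, a membrane protein of many tissues, rose from 7.57 ± 0.28 to 9.19 ± 0.51 (1.62 ± 0.17, adjusted p = 4.21e-08), and Hopx, a homeodomain protein also of heart, by 1.18 ± 0.12 from arrays that all lay below their lower quartile. Rtkn2 rose by 0.46 ± 0.12, and Clic5, an intracellular chloride channel protein, by 0.89 ± 0.19. Clic5 was split by replicate number at E16.5, at 7.42 to 8.16 in replicates 1 to 4 and 6.48 to 6.92 in replicates 5 to 8. Aqp5, the water channel of type I cells, and Ager, their receptor for glycated proteins, did not pass (-0.09 ± 0.06 and 0.09 ± 0.11).

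Of 8 airway genes, 1 rose and 0 fell, against the same 27.1% of all genes changed. The ciliary regulator Foxj1 had -0.07 ± 0.08, the airway factor Sox2 0.05 ± 0.10 (below the lower quartile on all 16 arrays), and the basal cell keratin Krt5 -0.09 ± 0.08, while Trp63, whose product is a p53 relative of basal cells, rose by 0.65 ± 0.09 (adjusted p = 2.08e-06). Scgb3a2, an early airway secretoglobin, did not pass (0.24 ± 0.16). It was singled out after its values were seen: replicate 4 of E16.5 read 7.03, against 5.34 to 6.08 on the other arrays of the stage, and this array has the third lowest Sftpc of its stage. Cyp2f2, a cytochrome P450 of club cells that liver also makes, read 10.34 on E12.5 replicate 2, the array with the highest hepatocyte mean, and 6.30 to 6.81 on the other 23. Among the 10 genes of the wider list that fell, the largest changes were those of the regulators Gata6 (-1.38 ± 0.17), Foxp4 (-1.22 ± 0.09) and Id2 (-1.17 ± 0.23). Other regulators of that list did not pass, such as Nfib (0.07, adjusted p = 0.744 in limma) and Bmp4 (0.11, adjusted p = 0.787).

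General epithelial genes showed few changes. Of 27 measured, 4 rose and 0 fell from E12.5 to E16.5 (14.8%, beside 27.1% of all genes changed in either direction), with a median log2 change of 0.06. Epcam, a surface protein of most epithelia including that of the lung, was low throughout: medians of 6.55, 6.50 and 6.36 at the 3 stages, 6 of 8 E16.5 arrays below their lower quartile, and a log2 change of -0.10 ± 0.08 from E12.5. Cdh1, the epithelial cadherin that mesothelium also expresses, rose by 0.40 ± 0.10 (adjusted p = 0.00365), with its highest values of 7.88 and 7.54 on E16.5 replicates 2 and 3. The others that rose were Marveld2, a tight junction protein (0.65 ± 0.15), Krt8, a keratin that mesothelium shares (0.60 ± 0.22), and Prss8.

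Of 10 measured genes listed for lung mesenchyme and its signals, 1 rose, 5 fell (Fgf9 among them) and 4 did not pass from E12.5 to E16.5. Over all 19351 genes, 2223 rose and 3018 fell. The median log2 change of the list was -0.36, and the list was not tested against the epithelial lists. Tbx5, a T-box factor of the lung and limb fields, fell by 1.71, Foxf1, a forkhead factor of gut and lung mesenchyme, by 1.41, and Fgf10, the signal for lung budding, by 0.61, while Fgf7 rose by 1.40 ± 0.50. Foxf1 read 10.03 ± 0.45 (SD, n = 8) in the E12.5 folds. Lists for 2 other epithelia that share genes with the lung showed 1 change in all. Of 17 genes of stomach and oesophagus 0 rose and 1 fell, and 0 of 6 thyroid genes passed at this step in limma (0 unadjusted). The gene that fell was Gata4, from 9.71 ± 0.28 in the E12.5 folds to 8.77 ± 0.32. Which cells its signal came from was not tested. Of 14 mesothelial genes 4 rose and 3 fell, and of 10 endothelial genes 7 rose and 0 fell, where 27.1% of all genes changed. The part of lung tissue, of mesothelium or of any other captured cell in the values of Sftpc was not tested.

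**Figure D4:**
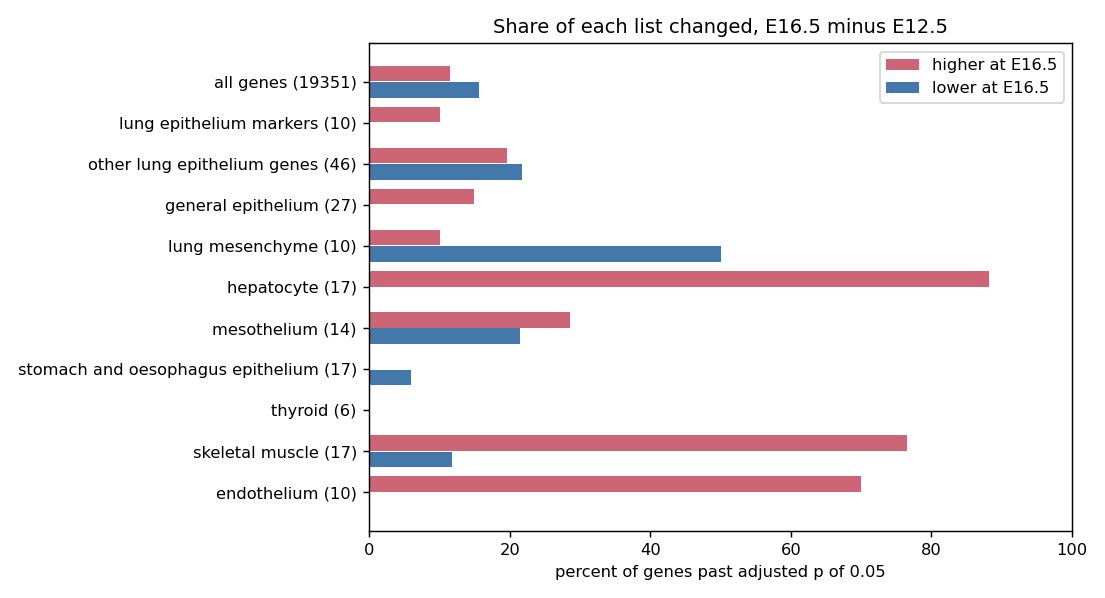
Percent of the measured genes of each list (number in brackets) past an adjusted p of 0.05 in limma from E12.5 to E16.5, higher (red) or lower (blue). The lung epithelium markers, with 1 of 10 higher and 0 lower, lie near the share of all genes that rose. The hepatocyte, skeletal muscle and endothelium lists lie far above it, at 88.2%, 76.5% and 70%. Mesothelium (28.6%), the other lung epithelium genes (19.6%) and general epithelium (14.8%) lie above it by less.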

How the data were processed

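For 24 arrays the authors deposited 1 log2 intensity for every probe set. Per the submitters' processing notes, Affymetrix Expression Console 1.1, RMA and R 2.9.2 were used; which step each served, and if all arrays were normalized as 1 batch, is not given in the sources used here. RMA corrects background, equalises the arrays' distributions and summarises probes, which compresses differences near background. The log2 scale was read from the values (2.56 to 14.12). Arrays have no read depth, so their number limits the precision.

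The platform annotation gives 1 gene symbol for 20760 of 24200 probe sets; 1140 with several and 2300 without a gene were left out. The probe set with the highest mean was kept for the 804 genes with several, giving 19351 genes. Stages, as labelled, were fitted in R 4.3.3 by limma 3.58.1 (lmFit and eBayes, all 24 arrays, no covariate; Benjamini-Hochberg over all genes, threshold 0.05, two-sided), tested on simulated data. Python 3.11.15 and pandas 2.3.3 made the tables. Correlations over arrays used exact permutation tests. Named were the members, called members of each list with the largest changes (in part), Epcam and Cdh1, and the 4 genes most like each member (in part). All 10 lists, that of the members included, were chosen with earlier results of these data known. Alternatives were other scalings, filters, variance models, array weights, covariates, subsets of arrays and leaving out each array.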

Additional observations from a re-analysis of the deposited data

Results flagged for a closer look

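Dixon's test at the 95% level was applied to the highest and the lowest of the 8 values of a stage. Of 126 groups of 8 arrays looked at, 13 had a value past its critical level. The level is set for about 1 in 20 groups by chance, where groups are not chosen by their values. Some of the genes here were chosen by their values, so the 13 cannot be set against that rate. At E16.5, replicate 3 was the highest for Cldn18 (8.58, next 7.43), Slc34a2 (7.02, next 6.23), Lamp3 (7.02, next 5.79), Retnla (6.82, next 5.28) and Ctsh (9.21, next 8.48). These genes were partly picked for being alike on this array, so they are not independent of each other. Replicate 4 of E16.5 was the highest for Scgb3a2 (7.03, next 6.08) and the lowest for Alb (11.53, next 12.54). Replicate 6 of E16.5 was the highest for Krt8 (10.77, next 9.77), and replicate 8 the lowest for Sftpd (6.50, next 6.70). Replicate 7 was the highest for the mean of stomach and oesophagus genes (6.80, next 6.70). At E11.5, replicate 4 was the lowest for Cldn18 (6.93, next 7.29) and for Foxa2 (7.13, next 7.44), and at E12.5 replicate 6 was the lowest for Foxa2 (7.08, next 7.41). Sftpc had no such value at any stage. The cause of these gaps was not tested.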

How the results depend on the processing

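The rise of Sftpc at E16.5 passed in all 36 alternatives that tested it, with log2 changes of 4.04 to 5.56 against E12.5 and 3.39 to 5.37 against E11.5; leaving out each array in turn gave 4.49 to 5.17 and 4.31 to 4.98. The 3.39 is from the fit with the hepatocyte covariate, which moves with stage. Leaving out the dimmer 50% of genes removes Sftpc and 8 other members from the fit, and the count of members changed was then 0 in both comparisons. It was 2 against E12.5 with E16.5 replicates 5 to 8 left out (Cldn18 passed). In the other alternatives it was 1 in both, and 0 from E11.5 to E12.5. The median change of the 10 kept within the spread of arrays. For the wider lung epithelium list, leaving out the dimmer 50% of genes gave 12 changed from E12.5 to E16.5 and 15 from E11.5 to E16.5, over 23 genes; the hepatocyte covariate also gave 15 for the latter, and median centring gave 1 from E11.5 to E12.5. Leaving out single arrays gave 19 to 21, 21 to 26 and 0. Same-numbered arrays did not deviate together (correlations of -0.28 to 0.09), so the labels' numbers do not pair them; with a replicate block the log2 changes of Sftpc were 4.80 (adjusted p = 5.36e-07) and 4.61 (adjusted p = 6.11e-07), and 1, 1 and 0 members changed, so it changed no call among members. Signal near background limits 16 Sftpc arrays and all those of Scgb1a1.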
